A study of Homo sapiens with 20 samples.

Results

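The MMP, TIMP and ADAMTS genes encode secreted and membrane-bound metalloproteases of the extracellular matrix and their inhibitors. They were taken from the deposited expression table by symbol (MMP, TIMP or ADAMTS followed by a number), which gave 42 of 24196 genes, made up of 20 MMP, 4 TIMP and 18 ADAMTS genes. The tumors grew orthotopically in immunodeficient NSG mice after implantation of OVCAR8 cells, an established line of human ovarian carcinoma. The PBS group (n = 4) and the gluconate group (n = 4) shared the line, the host and the site, and differed in the agent injected. Per the study's methods, the mice were 6 weeks old at implantation into the ovarian fat pad and received PBS or 1 mg/kg sodium gluconate intraperitoneally each week for 35 days. A legend of the study names a luciferase-tagged line with a non-targeting guide for the PBS and gluconate tumors, whereas the labels name only OVCAR8. The labels speak of tumors, while the study's text speaks of treated cells for this comparison, and the labels were followed. Each replicate is 1 tumor library, and nothing in the labels says whether the 4 of a group came from separate mice, so p-values measure the spread between these libraries.

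The metalloproteases of the MMP family carry a zinc ion in the active site and are made as inactive precursors. Between them they cut collagens, gelatin, proteoglycans and growth factor carriers, and the membrane-type members do so at the cell surface. TIMPs block the active site of most of these enzymes. ADAMTS proteases add thrombospondin-like repeats that hold them in the matrix, and their substrates include versican, aggrecan, procollagens and von Willebrand factor. In ovarian cancer, this system is known for its part in invasion through the mesothelial lining and its matrix.

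Expression was measured as FPKM, the fragments of a gene scaled by its length and by the fragments of the library. Levels of different genes can be set side by side only as far as the gene lengths used are right. The table heads its columns C and T, which were read as PBS and gluconate, and the direction of each difference rests on that reading. PBS replicate 4 stood apart before any comparison. It held 3953206 fragments against 39325749 to 46551535 in the other 7 libraries, and its log2 expression correlated at 0.938 to 0.951 with them, while they correlated at 0.980 to 0.994 with each other. The tested comparisons of the groups are therefore also given without this library. Epithelial ovarian markers were present in all libraries, with 32.4 to 50.7 FPKM for PAX8 and 699.7 to 1051 FPKM for KRT8, while MUC16 was at most 0.00168 FPKM in any library. How reads from the mouse host were treated is not given in the sources used here, and in bulk tissue fewer cells of a type and less RNA per cell cannot be told apart.

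Expression of the members was concentrated in a few genes. TIMP2, TIMP1, MMP14 and ADAMTS1 were the only 4 members with a mean of at least 10 FPKM, and together they held 88.4% to 89.7% of the summed FPKM of all 42 members in each library. A further 16 members lay between 0.5 and 10 FPKM, 9 between 0.1 and 0.5 FPKM, and 13 under 0.1 FPKM. In the order of mean levels, TIMP2 was above TIMP1 in 7 of 8 libraries, TIMP1 above MMP14 in 7 of 8, and MMP14 above ADAMTS1 in 5 of 8, so these neighbours overlapped. ADAMTS1 was above the next member, ADAMTS6, in 8 of 8 libraries.

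**Figure D1:**
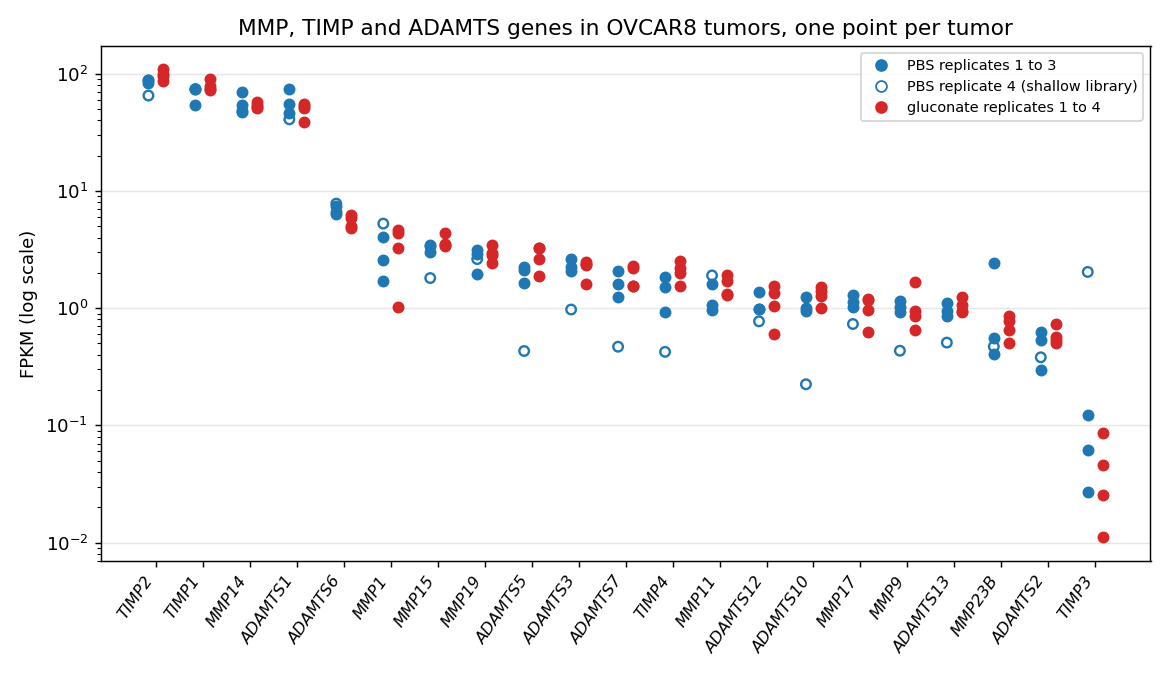
FPKM (log scale) of the 20 members with a mean of at least 0.5 FPKM, in order of their mean, and of TIMP3, in each PBS (blue) and gluconate (red) tumor, with PBS replicate 4 as an open circle. The first 4 genes sit between 38.7 and 109.0 FPKM in every tumor, a gap separates them from ADAMTS6 at 4.81 to 7.79 FPKM, and PBS replicate 4 is far from the other tumors in TIMP3.

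Of the inhibitors, TIMP2 (chr17:78852977-78925387, minus strand, 6 exon blocks, GENCODE 29 on GRCh38) was the most abundant member. TIMP2, which blocks MMPs and also takes part in the activation of MMP2 by MMP14, stood at 84.0, 88.5, 88.3 and 65.1 FPKM in PBS replicates 1 to 4. In gluconate replicates 1 to 4 it stood at 95.4, 86.4, 100.4 and 109.0 FPKM. The lowest gluconate tumor lay below 2 of the PBS tumors, and the lowest value of all was that of PBS replicate 4. The means were 81.5 ± 11.1 and 97.8 ± 9.43 FPKM (SD, n = 4 each).

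TIMP1, a broad MMP inhibitor on the X chromosome, was at 73.5, 73.4, 54.1 and 73.9 FPKM in the PBS tumors and at 74.7, 72.2, 77.9 and 90.9 FPKM in the gluconate tumors. PBS replicate 3 was low and gluconate replicate 4 high, with the other 6 tumors between 72.2 and 77.9 FPKM. The ratio of TIMP1 to TIMP2 was below 1 in 7 libraries (0.612 to 0.876) and 1.14 in PBS replicate 4.

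TIMP4, an inhibitor with a restricted tissue distribution, was expressed at a much lower level. Its FPKM was 1.84, 1.51, 0.924 and 0.424 in PBS replicates 1 to 4 and 1.56, 2.00, 2.21 and 2.53 in gluconate replicates 1 to 4. The groups overlapped through PBS replicate 1 and gluconate replicate 1. The value of PBS replicate 4 rested on 2 fragments (95% Poisson interval 0.0513 to 1.53 FPKM, counting error only), and those of the other tumors on 44 to 129. TIMP4 shares 170 exon bases with SYN2 on the opposite strand, and the sources used here do not say whether counting used the strand. SYN2 itself had a mean of 0.0369 FPKM over the 8 libraries and 0.241 FPKM in PBS replicate 4, where TIMP4 was lowest, so the TIMP4 value there is the least certain.

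TIMP3, the inhibitor that binds to the matrix and also blocks ADAMTS proteases, was close to the detection limit in 7 tumors and 16.8 times above the highest of them in PBS replicate 4. It stood at 0.0620, 0.121, 0.0273 and 2.04 FPKM in the PBS tumors and at 0.0863, 0.0458, 0.0111 and 0.0254 FPKM in the gluconate tumors. In PBS replicate 4 this was 37 fragments (95% Poisson interval 1.43 to 2.81 FPKM), more than the 2 to 26 fragments in the 7 deeper libraries. Without that library, TIMP3 was 0.0703 ± 0.0477 FPKM (SD, n = 3) in PBS and 0.0421 ± 0.0327 FPKM (SD, n = 4) in gluconate tumors. Of the 8 ovarian carcinoma markers, WT1 was above all others in PBS replicate 4 (6.58 against 1.07 to 1.82 FPKM), 3 were below all others (PAX8 at 32.4 against 38.0 to 50.7, EPCAM at 10.3 against 15.7 to 22.3 and KRT7 at 124.5 against 185.0 to 392.6 FPKM), and 4 were within their range. The part of these in the TIMP3 value was not tested.

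Among the proteases, MMP14 (chr14:22836557-22849027, plus strand, 12 exon blocks) supplied 76.0% to 81.4% of the summed MMP level in each library. MMP14, the main membrane-type collagenase and activator of pro-MMP2, was at 54.0, 46.7, 70.4 and 47.8 FPKM in the PBS tumors and at 52.4, 50.9, 54.3 and 57.2 FPKM in the gluconate tumors. PBS replicate 3 was the highest, and the gluconate values lay inside the range of the PBS values. The ratio of TIMP2 to MMP14 was 1.52 ± 0.281 in PBS and 1.82 ± 0.0872 in gluconate tumors (SD, n = 4 each), and 1.57 ± 0.320 in PBS without replicate 4 (n = 3), with the lowest ratio, 1.25, in PBS replicate 3 and the highest, 1.90, in gluconate replicate 4.

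MMP2, the gelatinase that MMP14 activates, was all but absent from these libraries. It had 1, 3, 0 and 2 fragments in PBS replicates 1 to 4 and 0, 0, 0 and 4 fragments in gluconate replicates 1 to 4. As FPKM these were 0.00535, 0.0157, 0 and 0.124 in PBS and 0, 0, 0 and 0.0229 in gluconate tumors. The value of PBS replicate 4 was 5.41 times the highest of the others, with a 95% Poisson interval of 0.0150 to 0.446 FPKM. The other gelatinase, MMP9, ranged from 0.433 to 1.66 FPKM on 4 to 166 fragments.

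The further membrane-type members were lower than MMP14. MMP15 stood at 3.03, 3.45, 3.36 and 1.81 FPKM in the PBS tumors and at 3.42, 3.44, 3.49 and 4.39 FPKM in the gluconate tumors, with PBS replicate 4 lowest and gluconate replicate 4 highest. MMP17, anchored to the membrane by a lipid, ranged from 0.622 to 1.29 FPKM. MMP24, also of the membrane type, was at 0.358, 0.369, 0.295 and 0.0550 FPKM in the PBS tumors and at 0.388, 0.290, 0.321 and 0.611 FPKM in the gluconate tumors. The groups overlapped, and PBS replicate 4, the lowest, held 1 fragment. MMP16, MMP24 and MMP25 had means of 0.385, 0.336 and 0.0827 FPKM and were not tested. MMP24 and MMP25 share 799 and 1454 exon bases with MMP24OS and MMP25-AS1 on the opposite strand, which had means of 32.0 and 3.54 FPKM, so their own values are uncertain.

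Of the secreted collagenases MMP1, MMP8 and MMP13, which cut fibrillar collagen, only MMP1 had a mean of at least 0.5 FPKM. MMP1 was at 2.56, 1.70, 4.04 and 5.26 FPKM in PBS replicates 1 to 4 and at 4.60, 1.02, 3.25 and 4.37 FPKM in gluconate replicates 1 to 4. Both groups spread widely and overlapped throughout. MMP13 had at most 6 fragments in any library. MMP8 had 0 fragments in all 4 PBS tumors and 0, 1, 2 and 5 in the gluconate tumors, too few to compare.

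A row of neighbouring MMP genes lies on chromosome 11, and here MMP1 was the only one of them above 0.5 FPKM. The 7 members, MMP7, MMP8, MMP10, MMP1, MMP3, MMP12 and MMP13 in order along the chromosome, cover chr11:102520508-102955734 (435.2 kb, all on the minus strand). MMP12, a macrophage elastase, was at 0.168, 0.271, 0.124 and 0 FPKM in PBS replicates 1 to 4 and at 0.218, 0.218, 0.279 and 0.308 FPKM in gluconate replicates 1 to 4. The groups overlapped, and no fragment was seen in PBS replicate 4. MMP7, a matrilysin, had a mean of 0.109 FPKM, and the stromelysins MMP10 and MMP3 had means of 0.0275 and 0.0137 FPKM.

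**Figure D2:**
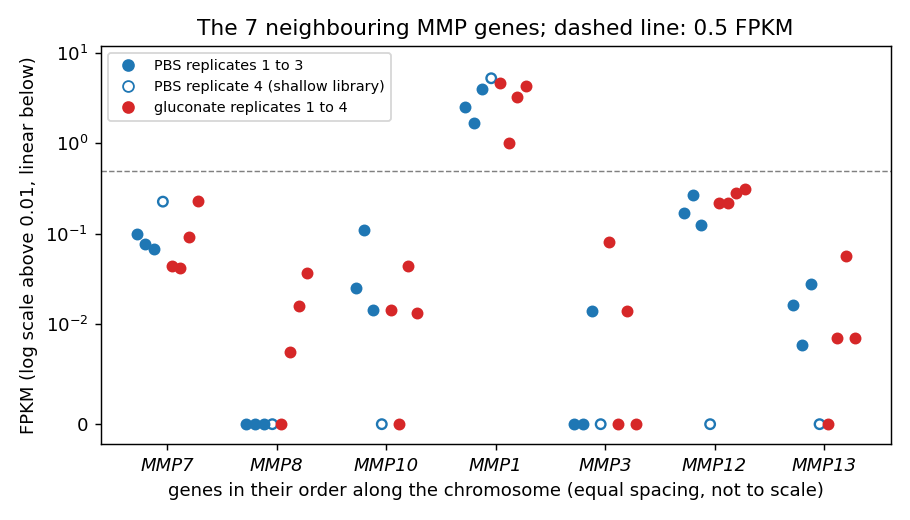
FPKM of the 7 neighbouring MMP genes of chromosome 11 in gene order, 1 point per tumor, on an axis that is logarithmic above 0.01 and linear below. MMP1 lies between 1.02 and 5.26 FPKM in all 8 tumors, and every point of the other 6 genes is under the dashed line at 0.5 FPKM.

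The start regions of an expressed and a near-silent pair of members are printed here to show the motifs searched in MMP7 and MMP10 beside 2 members without them. The 100 bases before the start are from RefSeq on GRCh38.p14, written 5′ to 3′ on the strand of the gene, with TATAAA and TGAGTCA (the AP-1 site) in capitals. MMP14 is chr14:22836485-22836584 on the plus strand and ADAMTS6 is chr5:65481921-65482020 on the minus strand. MMP7 is chr11:102530748-102530847 and MMP10 is chr11:102780629-102780728, both on the minus strand.
MMP14: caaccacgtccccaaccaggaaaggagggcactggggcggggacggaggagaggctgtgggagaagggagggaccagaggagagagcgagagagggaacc
ADAMTS6: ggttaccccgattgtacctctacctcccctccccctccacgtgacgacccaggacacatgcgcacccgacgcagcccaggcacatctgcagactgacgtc
MMP7: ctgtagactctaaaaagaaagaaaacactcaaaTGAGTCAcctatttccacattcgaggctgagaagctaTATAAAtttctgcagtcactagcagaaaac
MMP10: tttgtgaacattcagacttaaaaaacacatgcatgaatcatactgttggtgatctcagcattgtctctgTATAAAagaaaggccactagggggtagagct

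The first base of TATAAA was at -30 in MMP7 and at -31 in MMP10, counted back from the start, and TGAGTCA in MMP7 began at -67. Entries were found for 24 members, and 18 had none, among them MMP1, MMP3, MMP9, MMP12, MMP13, TIMP2 and ADAMTS1. The counts that follow say nothing about those 18. Searched on both strands over 250 bases before the start, TATAAA was found in 5 of the 24 members (MMP7, MMP8, MMP10, MMP21 and ADAMTS10) and in 10.7% of all 35116 windows. It was in 1 of the 13 members with a mean of at least 0.5 FPKM and in 4 of the 11 members below that. TGAGTCA was found in MMP7 alone of the 24, and in 4.20% of all windows. The share of G and C was 33.6% in MMP7, 36.4% in MMP8 and 34.4% in MMP10, against 52.4% to 80.8% in the 13 members of at least 0.5 FPKM and a median of 58.0% over all windows. The other 8 of the 11 members below 0.5 FPKM had 60% to 80.4%, inside the range of the members above it. These matches describe the sequence only.

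Of the remaining MMP members, MMP19 was the most abundant. It stood at 2.91, 3.14, 1.94 and 2.62 FPKM in the PBS tumors and at 2.83, 2.98, 2.42 and 3.45 FPKM in the gluconate tumors, with PBS replicate 3 lowest and gluconate replicate 4 highest. MMP11, known from tumor stroma, ranged from 0.964 to 1.90 FPKM. It shares 218 exon bases with CHCHD10 on the opposite strand, which had a mean of 75.9 FPKM. MMP23B had 52 fragments in PBS replicate 3 and 10 to 18 in the other 6 deep libraries (2.42 FPKM against 0.408 to 0.851 FPKM). It was picked out after its values were seen, and it has a near-identical copy, MMP23A, with which it may share reads. MMP28 and MMP21 had means of 0.130 and 0.0130 FPKM.

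ADAMTS1, which cleaves versican and aggrecan, led the third family with 68.7% to 82.1% of its summed level. It was at 54.7, 46.2, 73.6 and 40.8 FPKM in the PBS tumors and at 51.3, 55.6, 53.6 and 38.7 FPKM in the gluconate tumors. PBS replicate 3 was again the highest, and the lowest values were those of replicate 4 of both groups. ADAMTS1 and ADAMTS5 are neighbours on chromosome 21, at 26835747 to 26845409 and 26917912 to 26966513, both on the minus strand.

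ADAMTS5, an aggrecanase with versican among its substrates, was at 2.26, 2.10, 1.63 and 0.431 FPKM in PBS replicates 1 to 4. In gluconate replicates 1 to 4 it was at 1.89, 2.62, 3.26 and 3.26 FPKM. Gluconate replicates 2 to 4 lay above all PBS tumors, while gluconate replicate 1 lay among them. The PBS replicate 4 value rested on 17 fragments (95% Poisson interval 0.251 to 0.690 FPKM). The other hyalectan-cleaving members were low. ADAMTS9 was at 0.155, 0.183, 0.0921 and 0 FPKM in the PBS tumors and at 0.107, 0.178, 0.147 and 0.135 FPKM in the gluconate tumors, so the groups overlapped, and PBS replicate 4 held no fragment of it. The means were 0.0513 FPKM for ADAMTS4 and under 0.01 FPKM for ADAMTS15 and ADAMTS20.

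ADAMTS6 (chr5:65148736-65481920, minus strand, 29 exon blocks) was the second ADAMTS gene by level and the one member whose groups did not overlap. It is related to ADAMTS10, and both are linked to fibrillin microfibrils. Its FPKM was 7.51, 6.57, 6.30 and 7.79 in PBS replicates 1 to 4 and 5.03, 6.17, 5.84 and 4.81 in gluconate replicates 1 to 4. Every gluconate tumor was below every PBS tumor, with 6.17 and 6.30 FPKM at the border. These values rested on 2933 to 4946 fragments in the deep libraries and on 445 in PBS replicate 4. ADAMTS10 was at 1.01, 0.947, 1.25 and 0.224 FPKM in PBS and at 1.26, 1.39, 1.00 and 1.51 FPKM in gluconate tumors. PBS replicate 4 was the lowest, on 4 fragments, and the groups overlapped.

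ADAMTS3, a procollagen N-proteinase, was at 2.22, 2.07, 2.61 and 0.973 FPKM in the PBS tumors and at 1.59, 2.31, 2.40 and 2.46 FPKM in the gluconate tumors. The groups overlapped, with PBS replicate 4 lowest. Its relatives ADAMTS2 and ADAMTS14 had means of 0.521 and 0.257 FPKM. ADAMTS7, which cleaves COMP, was at 1.61, 2.06, 1.25 and 0.469 FPKM in PBS and at 1.55, 1.55, 2.30 and 2.21 FPKM in gluconate tumors. Here 2 gluconate tumors lay above all PBS tumors and the other 2 among them. ADAMTS12 and ADAMTS13, the latter the von Willebrand factor protease, had means of 1.08 and 0.950 FPKM. ADAMTS16, ADAMTS17, ADAMTS18 and ADAMTS19 were under 0.25 FPKM on average.

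The comparison of gluconate with PBS tumors asked whether the agent changed these genes. ADAMTS6 was lower, and TIMP2 and TIMP4 were higher, under gluconate by limma's unadjusted threshold of 0.05. None of them passed adjustment over all genes. ADAMTS6 had 7.04 ± 0.717 FPKM in PBS and 5.46 ± 0.650 FPKM in gluconate tumors (SD, n = 4 each), a log2 fold change of -0.36 ± 0.12 (SE; limma p = 0.0128, adjusted p = 0.740, two-sided exact permutation p = 0.0286, the smallest that 4 against 4 tumors can give). TIMP2 differed by 0.27 ± 0.11 (limma p = 0.0415, adjusted p = 0.740, exact permutation p = 0.0857). TIMP4 differed by 0.91 ± 0.37 (limma p = 0.0360, adjusted p = 0.740, exact permutation p = 0.0571), between 1.17 ± 0.627 and 2.07 ± 0.408 FPKM. These fold changes are on the log2(FPKM + 0.1) scale, where the 0.1 pulls the ratio of 2 low values towards 1.

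These were 3 of the 20 members tested, 1 lower and 2 higher, beside 4.62% of the 12486 genes tested (1.49% lower and 3.13% higher). The 20 were those with a mean of at least 0.5 FPKM (8 MMP, 3 TIMP and 9 ADAMTS), and 22 members were below this. One of the 20, ADAMTS2, reached 0.5 FPKM in the mean of 1 group only. No member was also 2-fold changed, beside 0.296% of all genes. With Benjamini-Hochberg adjustment over all genes, limma called 0 members and 0% of all genes, against 3 members and 577 genes at the unadjusted threshold, and limma's voom on recovered fragments also called 0 adjusted and 3 members unadjusted (4.77% of all genes). Groups that did not overlap were seen for ADAMTS6 alone of the 20, beside 3.49% of all genes (1.41% lower and 2.08% higher in gluconate).

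**Figure D3:**
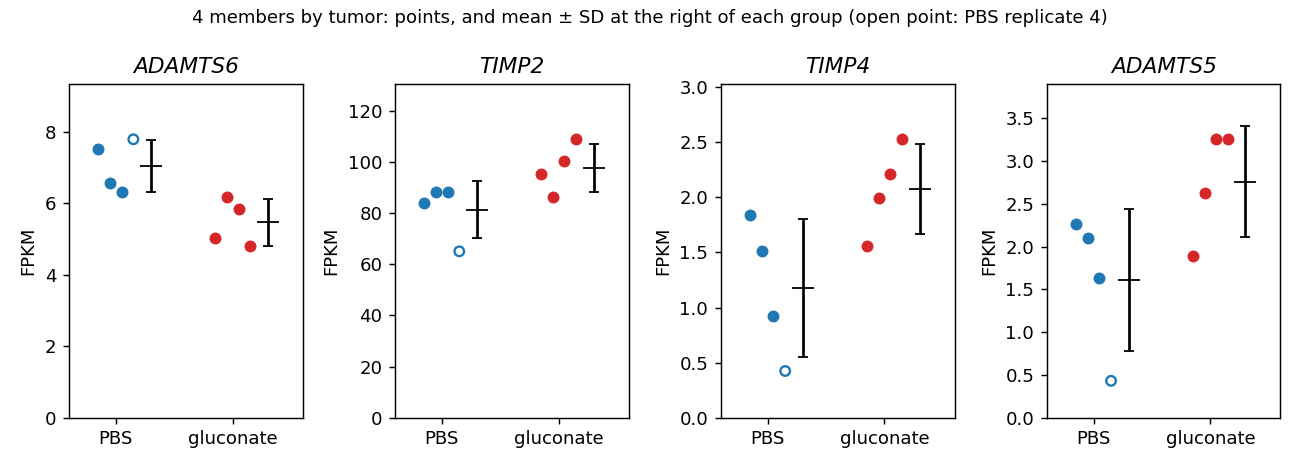
FPKM of ADAMTS6, TIMP2, TIMP4 and ADAMTS5 in each PBS (blue) and gluconate (red) tumor, from an axis at 0, with the mean ± SD (n = 4) to the right of each group and PBS replicate 4 as an open circle. ADAMTS6 values do not overlap between groups (lowest PBS 6.30, highest gluconate 6.17 FPKM), while the other 3 genes overlap.

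Leaving out PBS replicate 4 removed TIMP2 from the calls and left ADAMTS6 and TIMP4. ADAMTS6 then differed by -0.31 ± 0.11 (limma p = 0.0170, adjusted p = 0.799, exact permutation p = 0.0571, the smallest that 3 against 4 tumors can give), with 6.79 ± 0.631 FPKM in PBS (SD, n = 3). TIMP4 differed by 0.54 ± 0.23 (limma p = 0.0393, adjusted p = 0.799, exact permutation p = 0.114), against 1.42 ± 0.463 FPKM in PBS. TIMP2 differed by 0.17 ± 0.08 (limma p = 0.0675, exact permutation p = 0.171), with 86.9 ± 2.55 FPKM in PBS. The count was thus 2 of 20 members, beside 6.21% of the 12530 genes tested without this library (3.36% lower and 2.85% higher), with 0.0878% of all genes also 2-fold changed and no member among them. ADAMTS6 remained the single member without overlap, beside 6.1% of all genes (3.66% lower and 2.43% higher in gluconate).

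ADAMTS5 did not pass the threshold with all tumors (log2 fold change 0.92 ± 0.44, limma p = 0.0646, exact permutation p = 0.0857) or without PBS replicate 4 (0.43 ± 0.19, limma p = 0.0534). It did pass with a pseudocount of 1 (0.58), without PBS replicate 1 (1.15) and without PBS replicate 2 (1.11). With voom on the recovered fragments and without PBS replicate 4, the unadjusted calls were ADAMTS6 and ADAMTS5, and TIMP4 was not among them, so 2 of 20 members were called beside 6.04% of all genes. TIMP1 differed by 0.21 ± 0.12 (exact permutation p = 0.200), MMP14 by -0.0091 ± 0.12 and ADAMTS1 by -0.090 ± 0.18, all with a limma adjusted p of at least 0.740. Without PBS replicate 4 they differed by 0.24 ± 0.12, -0.067 ± 0.12 and -0.21 ± 0.16, and none passed the unadjusted threshold. For MMP1 the difference was -0.11 ± 0.48, and its sign turned, to 0.14, without PBS replicate 4. The 17 members that missed the threshold are not shown to be equal between the groups.

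By family, 0 of 8 MMP, 2 of 3 TIMP and 1 of 9 ADAMTS members tested passed the unadjusted threshold, beside 4.62% of all genes. The 2 of 3 TIMP members became 1 of 3 without PBS replicate 4 (beside 6.21%) and 0 of 3 with voom without that library (beside 6.04%) or with the replicate number as a block (beside 3.76%). Median log2 fold changes were 0.07 for MMP, 0.27 for TIMP and 0.30 for ADAMTS members, beside 0.07 for all genes tested. Without PBS replicate 4 they were 0.04, 0.24 and 0.09, beside -0.0029 for all genes. Of the 20 members, 14 (70%) had a positive fold change with all tumors, beside 66.4% of all genes tested, and 12 (60%) without PBS replicate 4, beside 49.1%. The summed TIMP level was 151.9 ± 11.1 FPKM in PBS and 178.8 ± 17.7 FPKM in gluconate tumors, and the summed MMP level 69.2 ± 12.0 and 69.3 ± 4.37 FPKM (SD, n = 4 each). The summed ADAMTS level was 69.7 ± 15.5 and 67.0 ± 7.75 FPKM. Without PBS replicate 4, the PBS sums were 155.4 ± 10.6 FPKM for TIMP, 71.6 ± 13.5 for MMP and 75.3 ± 13.1 for ADAMTS (SD, n = 3).

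**Figure D4:**
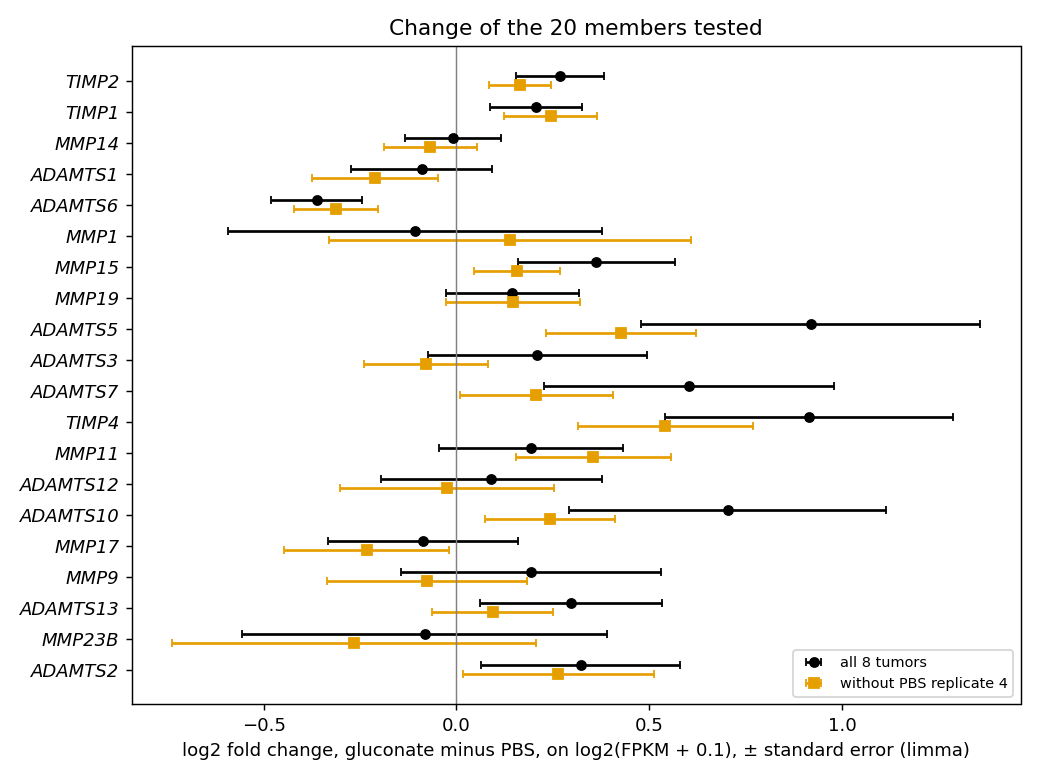
Log2 fold change of the 20 members tested, gluconate minus PBS, with the standard error, from all 8 tumors (black) and without PBS replicate 4 (orange). ADAMTS6 lies at -0.36 and -0.31, and ADAMTS5 and TIMP4 move from 0.92 and 0.91 towards 0 (0.43 and 0.54) when that tumor is left out.

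The tumors within the PBS group differed from each other in these genes. PBS replicate 4 was below all 7 others in 9 of the 20 members tested, beside 58% of all genes, and above all 7 in 2 (ADAMTS6 and MMP1), beside 13.7%. It was over 4 times above all others in 2 of the 42 members (TIMP3 and MMP2), beside 1.72% of all genes in the table, and over 4 times below all others in 4 (ADAMTS10, MMP24, MMP12 and ADAMTS9, the last 2 with 0 fragments there), beside 9.64%. PBS replicate 3 was the highest tumor for MMP14, ADAMTS1, ADAMTS3 and MMP23B and the lowest for TIMP1, MMP19, MMP11 and ADAMTS2. That is 4 of 20 members at each end, beside 19.1% and 11.2% of all genes. In this tumor the summed TIMP level was 1.66 times the summed MMP level, against 2.28 to 2.72 times in the other 7. Gluconate replicate 4 was the highest tumor for 6 members, among them TIMP1, TIMP2 and TIMP4, beside 15.2% of all genes.

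**Figure D5:**
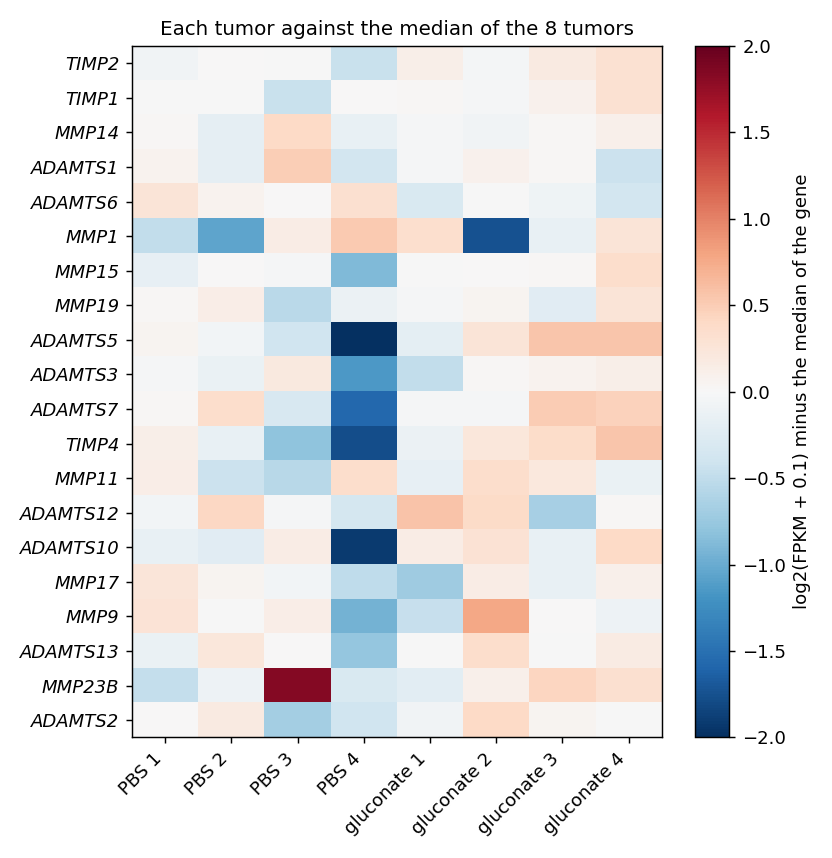
Log2(FPKM + 0.1) of the 20 members tested minus the median of the gene over the 8 tumors, red above and blue below, with the color scale ending 2 units to either side. PBS replicate 4 is below the other tumors in 9 of 20 members, and PBS replicate 3 stands out in MMP23B.

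The summed FPKM of the fibroblast markers also differed between these libraries. The 10 genes summed to 130.4 to 186.4 FPKM in PBS replicates 1 to 3, to no more than 45.5 FPKM in PBS replicate 4, and to 165.9 to 192.8 FPKM under gluconate, most of it COL1A1. COL1A2, DCN, PDGFRA and THY1 were at most 0.0678, 0.0388, 0.0136 and 0.125 FPKM in any library. The sum is thus mainly a level of COL1A1 and no measure of fibroblasts as a whole. In PBS replicate 4, 7 of the 10 were below all other libraries. COL1A1 was at 41.4 against 120.9 to 182.1 FPKM and COL1A2 at 0 against 0.00501 to 0.0678 FPKM. The other 3 were within their range, among them PDGFRA, at 0 there and in 3 other libraries, and DCN, at 0.0360 against 0.00306 to 0.0388 FPKM. Between the groups, 0 of the 6 markers tested passed the threshold with all tumors (median log2 fold change 0.51, beside 4.62% of all genes called) or without PBS replicate 4 (median 0.14, beside 6.21%). The 7 endothelial markers summed to 0.377 FPKM in PBS replicate 4 and to 0.996 to 1.36 FPKM in the others, with CLDN5 at 0 in 7 libraries. In PBS replicate 4, 4 of them (PECAM1, VWF, KDR and ERG) were below all other libraries and 1, TEK, was above (0.159 against 0.0104 to 0.0490 FPKM). There VWF was at 0.0286 against 0.0397 to 0.0973 FPKM, and KDR at 0 against 0.0295 to 0.0773 FPKM. In a library this shallow, values so low rest on few fragments or none. For such markers, low depth and a low level cannot be told apart. Of the 6 myeloid markers present, CD68 gave most of the 20.77 to 28.95 FPKM, while PTPRC was at most 0.0165 FPKM. The 3 neutrophil markers present summed to at most 0.0662 FPKM, and the 3 adipocyte markers to 5.95 to 12.2 FPKM, most of it LPL. In PBS replicate 4, ITGAM of the myeloid markers and LPL were above all other libraries (1.36 against 0.691 to 0.810 FPKM and 12.2 against 5.91 to 8.87 FPKM). PLIN1 was below, at 0 against 0.0318 to 0.0778 FPKM, with the same limit of depth. TIMP2, TIMP4 and ADAMTS5 were also lowest in that library and ADAMTS6 was highest, and the part of any of these marker shifts in the values of the members was not tested. Of the 8 ovarian carcinoma markers, 7 were tested and 1, KRT7, was higher in gluconate tumors (log2 fold change 0.73, limma p = 0.0201, adjusted p = 0.740, exact permutation p = 0.0857), and by 0.48 without PBS replicate 4, also past the unadjusted threshold. That is 1 of 7 beside 4.62% of all genes, and 6.21% without that library.

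Genes that work with these proteases were read from lists of activators, regulators, relatives and substrates. In the list of other metalloprotease regulators, SPOCK1, a matrix proteoglycan known to restrain MMP activation, was the 1 of 6 tested that passed the threshold, beside 4.62% of all genes (6.21% without PBS replicate 4). It stood at 17.6, 8.72, 6.88 and 9.23 FPKM in PBS and at 14.1, 14.6, 16.0 and 20.0 FPKM in gluconate tumors. PBS replicate 1 lay among the gluconate tumors and the other PBS tumors below all of them (log2 fold change 0.68 ± 0.25, limma p = 0.0242, adjusted p = 0.740, exact permutation p = 0.114). Without PBS replicate 4 the fold change was 0.65, past the unadjusted threshold. The most abundant genes of that list, BSG and CD44, had means of 292.2 and 81.7 FPKM and differed by 0.03 and 0.15 on the log2 scale (0.04 and 0.15 without PBS replicate 4).

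Among the 6 matrix substrates tested, FBN1, which encodes the microfibril protein fibrillin-1, was higher in gluconate tumors, 1 of 6 beside 4.62% of all genes (6.21% without PBS replicate 4). Its FPKM was 13.4, 9.54, 9.52 and 4.42 in PBS and 12.5, 11.5, 16.0 and 17.5 in gluconate tumors (log2 fold change 0.72 ± 0.30, limma p = 0.0372, adjusted p = 0.740, exact permutation p = 0.0857). PBS replicate 1 overlapped the gluconate group, and without PBS replicate 4 the fold change was 0.41 on the log2 scale, still past the unadjusted threshold. The most abundant substrates, FN1 and FBN2, had means of 719.9 and 33.5 FPKM and differed by 0.49 and 0.15 on the log2 scale (0.22 and 0.083 without PBS replicate 4).

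In the other 5 lists, 0 genes passed limma's unadjusted threshold with all tumors (beside 4.62% of all genes) or without PBS replicate 4 (beside 6.21%). These were 9 plasminogen activation genes tested (led by S100A10 and ANXA2, at means of 673.4 and 565.0 FPKM), 5 ADAM proteases (ADAM9 and ADAM15, at 84.8 and 20.9 FPKM), and 4 ADAMTS-like genes (ADAMTSL4 and ADAMTSL5, at 16.0 and 7.00 FPKM). The 3 proprotein convertases, which activate MMP14 and ADAMTS precursors (FURIN and PCSK7, at 5.76 and 4.97 FPKM), and the 7 AP-1 genes (FOSL1 and JUN, at 173.0 and 58.6 FPKM) made up the rest. PLAU, the urokinase that activates plasminogen, reached 172.0 FPKM in PBS replicate 3, while the other 7 tumors lay at 33.4 to 71.3 FPKM, a value picked out after it was seen. MMP14 and ADAMTS1 were also highest in that tumor.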

How the data were processed

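PolyA RNA of 8 tumors was sequenced by the authors, who deposited FPKM values per gene symbol. The submitters' processing notes name GRCh38. The aligner, counter, annotation and filters are not given in the sources used here. Of the 20 labelled samples, 12 knockout and control libraries were not analysed here. The column letters C and T were read as PBS and gluconate from the study's volcano plot, since these are the only groups of 4. The number of unused columns of samples was 0.

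Values fell on whole-fragment steps (99.98% within 0.002), which gave 3953206 to 46551535 fragments per library and Poisson intervals, which cover counting error only. Differences were tested two-sided on log2(FPKM + 0.1) (R 4.3.3; limma 3.58.1; trend, no block) after a filter of mean FPKM of at least 0.5, and p-values were adjusted over all these genes by Benjamini-Hochberg. The exact permutation test of the group labels, on the same scale, was added for single genes after the data were seen. The script was tested on simulated data. Voom on recovered fragments was also run. Python 3.11.15, pandas, numpy and matplotlib were used for the rest. Positions are from GENCODE 29 and start regions from RefSeq. The gene lengths behind the FPKM values differed from the exon lengths of GENCODE 29 in some members. They were 14448 against 8567 bases for ADAMTS6 and 538 against 2273 bases for MMP23B. The exon overlaps given may thus not be those of the annotation used for counting.

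The members and lists were chosen with earlier results of these data known. Values in every tumor are given for the 12 most abundant members, TIMP1 to TIMP4, members at an unadjusted p under 0.05, those whose groups do not overlap, and those over 4 times above or below all others in PBS replicate 4. Of the related lists, the 2 most abundant genes and those at p under 0.05 are named. Alternatives were pseudocounts of 1 and 0.01, no filter and a filter of 1 FPKM, quantile and median-ratio scaling, the replicate number as a block, and each library left out in turn.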

Additional observations from a re-analysis of the deposited data

Results flagged for a closer look

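In groups of 4, a tumor was marked where its gap to the nearest other tumor exceeded 0.829 of the range of the group (Dixon's 95% critical value). Chance marks about 1 in 20 groups. Of the 40 groups of the 20 members tested, 4 were marked. TIMP3, known to stand apart in PBS replicate 4, and MMP2, MMP24, MMP12 and ADAMTS9, examined because of their values there, gave 3 more, from which no excess can be read. TIMP3 was 2.04 FPKM in PBS replicate 4, against 0.0273 to 0.121 FPKM in the other PBS tumors. MMP2 was 0.124 FPKM in PBS replicate 4, on 2 fragments, and 0.0229 FPKM in gluconate replicate 4, on 4 fragments, with 0 fragments in the other gluconate tumors, so that its gap fills the range by construction. TIMP1 was 54.1 FPKM in PBS replicate 3, against 73.4 to 73.9 FPKM in the others. MMP23B was 2.42 FPKM in the same tumor, against 0.408 to 0.559 FPKM. MMP15 was 4.39 FPKM in gluconate replicate 4, against 3.42 to 3.49 FPKM. ADAMTS3 was 1.59 FPKM in gluconate replicate 1, against 2.31 to 2.46 FPKM.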

How the results depend on the processing

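The ADAMTS6 difference kept its direction and an unadjusted p under 0.05 under all alternatives run (log2 fold change -0.43 to -0.30). Of the 20 members, 12 kept their direction under each alternative in which they were tested. Among these 12, ADAMTS2 and ADAMTS13 were not tested with a filter of 1 FPKM, nor ADAMTS2 without gluconate replicate 2. The 3 members called became 0 with adjusted p and 1 to 5 when 1 library was left out (5 without PBS replicate 2, 1 without gluconate replicate 3 or 4). The cause was not tested. The count with a 2-fold change, 0, ranged from 0 to 2 (2 without PBS replicate 1 or 2, 1 without gluconate replicate 1), and that of members without overlap from 1 to 3 (3 without gluconate replicate 1 or 2, 2 without PBS replicate 1 or 2 or gluconate replicate 3). The share of all genes without overlap was 3.49% with all libraries and 6.1% without PBS replicate 4. For a 2-fold change the shares were 0.296% and 0.0878%. With any other library left out, neither share over all genes was computed, so no excess of members can be read from these counts. Over all genes, 577 calls became 1028 with no filter, where 24196 genes were tested, and ranged from 267 (without gluconate replicate 4) to 1216 (without PBS replicate 1), with 288 without gluconate replicate 3 and 874 without PBS replicate 2. The 577 were 186 lower and 391 higher, a split that moved with the scaling. It was 350 lower and 358 higher with median-ratio scaling, and 337 and 423 with quantile normalization.

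The replicate numbers did not pair the tumors (correlations of deviations of same-numbered tumors -0.18, 0.08, 0.17 and -0.06), and with the number as a replicate block 1 of 20 members was called, ADAMTS6, beside 470 of 12486 genes (3.76%). TIMP2 missed the threshold with this block, with median-ratio scaling, without PBS replicate 1 or 4 or gluconate replicate 1, 3 or 4, and with voom without PBS replicate 4. TIMP4 missed it with the block and without PBS replicate 3 or gluconate replicate 2, 3 or 4, and with voom without PBS replicate 4. ADAMTS5, not called with all libraries, passed it with a pseudocount of 1, with voom without PBS replicate 4 and without PBS replicate 1 or 2, and ADAMTS7 passed it without PBS replicate 2.

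Signs turned in members that passed no threshold. ADAMTS12 was -0.015 with quantile normalization and, on voom's own log2 scale, -0.033 with voom without PBS replicate 4. Under that last fit, chosen after seeing the data, ADAMTS3 was -0.075, MMP9 -0.082 and MMP1 0.15, and with voom on all libraries MMP1 was 0.072. With 1 library left out, log2 fold changes ranged from -0.21 to 0.072 (ADAMTS1), -0.073 to 0.34 (ADAMTS12), -0.079 to 0.37 (ADAMTS3), -0.39 to 0.36 (MMP1), -0.078 to 0.12 (MMP14), -0.23 to 0.098 (MMP17), -0.32 to 0.45 (MMP23B) and -0.076 to 0.37 (MMP9). The family medians stayed positive under all alternatives run, but their size moved. The MMP median ranged from 0.0031 (median-ratio scaling) to 0.127 (without gluconate replicate 1), below the median of all genes in some settings and above it in others. In those 2 settings the median of all genes was 0.0049 and 0.080. The ADAMTS median ranged from 0.094 (without PBS replicate 4) to 0.43 (without PBS replicate 2), and the TIMP median from 0.20 to 0.33. Depth limits PBS replicate 4 most, where 1 fragment of TIMP4 was worth 0.212 FPKM.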
